A study of Homo sapiens with 10 samples.

Results

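Long non-coding RNAs (lncRNAs), 7 in all, were followed in C33A cells, a human cervical carcinoma line that lacks functional SWI/SNF ATPases: UCA1, MALAT1, NEAT1, H19, GAS5, SNHG1 and KCNQ1OT1. They were chosen by symbol and matched to 7 of the 63152 Ensembl gene identifiers in the deposited tables. UCA1 was on the list because it was among the top genes of both wild-type ATPases in these same libraries, so its difference from control and from the mutants is given as a description, with no test. The cells were transfected transiently for 48 h with 1 of 5 plasmids: pOPRSVI (control), pBJ5-BRG1 (BRG1-wt), pBJ5-BRG1-K798R (BRG1-mut), pCG-hBrm (BRM-wt) or pCG-hBrm-K798R (BRM-mut). The K798R change replaces a residue of the ATPase domain, which abolishes the ATP hydrolysis that drives remodelling. Each group had 2 libraries of polyadenylated RNA, 10 in all. The labels do not say whether they came from separate cultures, and the study's text mentions transfections in duplicate for the ATPases without tying them to libraries, so p-values may measure only the spread between these libraries. The control plasmid has another backbone than the ATPase plasmids, and wild type and mutant of each ATPase share theirs. The share of cells that took up a plasmid was not given.

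LncRNAs are transcripts that are processed like mRNAs but are not translated into known proteins. UCA1 was named after urothelial carcinoma and is found in many epithelial tumours. MALAT1 and NEAT1 are abundant nuclear RNAs made from neighbouring genes. MALAT1 gathers in nuclear speckles, and NEAT1 is the scaffold of paraspeckles, nuclear bodies built with RNA-binding proteins such as SFPQ and NONO. H19 and KCNQ1OT1 come from the imprinted region 11p15, where H19 is expressed from the maternal copy and KCNQ1OT1, antisense to KCNQ1, from the paternal one. GAS5 and SNHG1 carry small nucleolar RNAs (snoRNAs) in their introns, and their spliced RNAs are short-lived because nonsense-mediated decay removes them. BRG1, encoded by SMARCA4, and BRM, encoded by SMARCA2, are the alternative motors of the SWI/SNF complexes, which move nucleosomes at promoters and enhancers.

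The deposited tables give a mean over 4 libraries per gene, from which the reads of each library were recovered as whole numbers for 63144 genes. The 2 libraries of a group are called the deeper and the shallower one, since the recovered reads carry no replicate number. Reads on genes ranged from 28514500 to 40189015 per library, and levels are given as reads per 1000000 reads on genes (RPM), scaled by the trimmed mean of M-values. SMARCA4 held 46527 to 65524 reads in the 4 BRG1 libraries and 1646 to 5469 in the other 6. SMARCA2 held 43748 to 222526 reads in the 4 BRM libraries and 3 to 14 in the others. Of the epithelial genes checked, the keratin genes KRT8 and KRT18 held 47 to 1274 reads, but EPCAM held 18 to 43 and CDH1 2 to 13. The leukocyte gene PTPRC held 934 to 2322 reads, and the T-cell gene CD3E 0 in every library. The fibroblast gene COL1A2 held 97 to 414 reads, and the hepatocyte gene ALB 1 to 14. The libraries differed in how read numbers followed the GC content of genes. Across 11739 genes, the Spearman correlation of a library's deviation with exon GC content ranged from -0.82 in the shallower BRM-mut library to 0.80 in the deeper BRG1-mut library. It was -0.79 in the deeper and 0.80 in the shallower BRM-wt library, so that the tilt differed within groups as well as between them. The exons of UCA1 had a GC content of 48.4%, close to the median of 47.3% over all genes tested. The other members had 44.1% or less, except H19 with 61.8%.

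UCA1 (ENSG00000214049) lies on the plus strand of chromosome 19, at chr19:15939016-15947138 (GRCh37), and is annotated as a lncRNA gene with 4154 bases of exon. Its transcripts were scarce in control cells and in cells with a mutant ATPase, and abundant in cells with either wild-type ATPase. Control libraries held 91 and 106 UCA1 reads, which equals 2.52 and 3.16 RPM. BRG1-wt libraries held 1526 and 1133 reads, or 39.1 and 33.6 RPM. BRM-wt libraries held 1720 and 956 reads, or 44.4 and 33.7 RPM. BRG1-mut libraries held 94 and 108 reads, and BRM-mut libraries 127 and 107. The 4 libraries with a wild-type ATPase thus lay between 33.6 and 44.4 RPM and the other 6 between 2.51 and 3.37, with no overlap. In bulk libraries such as these, a change in the number of cells of a type and a change in the RNA per cell cannot be told apart.

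The mean UCA1 level was 2.84 ± 0.447 RPM in control, 36.3 ± 3.85 in BRG1-wt and 39.1 ± 7.57 in BRM-wt (SD, n = 2 each). The ratio of means to control was 12.8 for BRG1-wt and 13.8 for BRM-wt. Against its own mutant, each wild type was 12.4 times higher. On the scale of log2(RPM + 1), the difference from control was 3.28 for BRG1-wt and 3.37 for BRM-wt. These ranked 16th and 9th from the top among 16545 genes tested. The 2 wild types differed from each other by -0.09 (BRG1-wt minus BRM-wt). UCA1 was chosen as a top gene of both, so this closeness is a description too.

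The mutant libraries were not used in choosing UCA1, but the control libraries were, so its differences between mutant and control are also a description. The log2 difference from control was 0.03 in BRG1-mut (95% interval -0.46 to 0.53) and 0.11 in BRM-mut (-0.38 to 0.61). The mean levels were 2.94 ± 0.611 and 3.14 ± 0.0105 RPM (SD, n = 2 each), beside 2.84 in control. The transcripts of the transfected ATPases were abundant in both forms. SMARCA4 stood at 1749 and 1518 RPM in BRG1-mut and at 1361 and 1381 in BRG1-wt. SMARCA2 stood at 5516 and 2966 RPM in BRM-mut and at 5532 and 1542 in BRM-wt. The endogenous transcripts cannot be told apart from those of the plasmids in these counts. Keratin transcripts lay higher in the same libraries as UCA1. The 4 epithelial genes summed to between 35.7 and 63.0 RPM in the wild-type libraries and to between 6.70 and 19.4 in the other 6. KRT18 differed from control by 2.45 in BRG1-wt (adjusted p = 0.0843, limma) and by 2.24 in BRM-wt (adjusted p = 0.136), whereas EPCAM differed by -0.07 and -0.09. The 4 fibroblast genes summed to 11.2 to 14.9 RPM in BRG1-wt and 8.88 to 14.9 in BRM-wt, above the 6.49 to 7.93 of control, and to 4.28 to 13.4 in the mutants. The 2 leukocyte genes summed to 32.9 to 58.7 RPM in the wild types and 36.0 to 57.6 in the other groups, and the 2 hepatocyte genes to at most 0.416 in any library. The part of other cells in the UCA1 level was not tested.

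**Figure D1:**
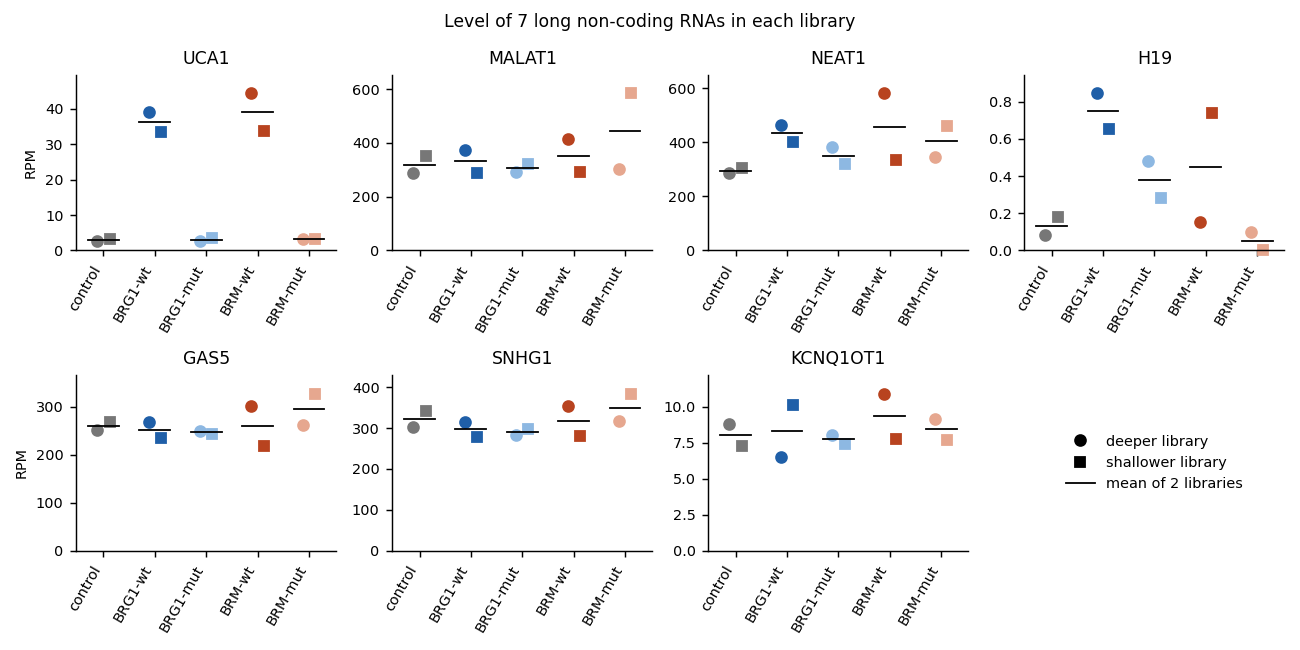
Reads per 1000000 reads on genes (RPM) of each of the 7 lncRNAs in every library (circle, deeper library; square, shallower library; line, mean of 2), with a linear axis from 0 for each gene. UCA1 stands at 33.6 to 44.4 in the 4 wild-type libraries and at 2.51 to 3.37 in the other 6, whereas all groups of MALAT1 and KCNQ1OT1 overlap. For GAS5 and SNHG1 both wild-type groups overlap control, but both BRG1-mut libraries lie below those of control and BRM-mut. For SNHG1 the BRG1-wt libraries also lie below those of BRM-mut. The share of all genes with such orders was not counted.

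None of the other 6 members passed the test in any comparison with control, with limma on log2(RPM + 1) and p adjusted over all 16545 genes. The same test called 0.381% of all genes in BRG1-wt, 0.308% in BRM-wt, 0.00604% in BRM-mut and 0% in BRG1-mut, where 283 genes had an unadjusted p under 0.05 and limma-voom also called 0. In BRG1-mut not even SMARCA4, the transfected gene, passed, with a log2 difference of 4.11 and an adjusted p of 0.686 (limma), so an absence of calls there says little. With so few genes called, 0 of 6 members is near the background in each comparison. Their median absolute log2 difference was 0.09 in BRG1-wt and 0.16 in BRM-wt, beside 0.13 and 0.09 over all genes. The intervals therefore carry more than the calls. They follow for each gene except H19, which passed the filter on low reads only through the wild-type libraries.

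**Figure D2:**
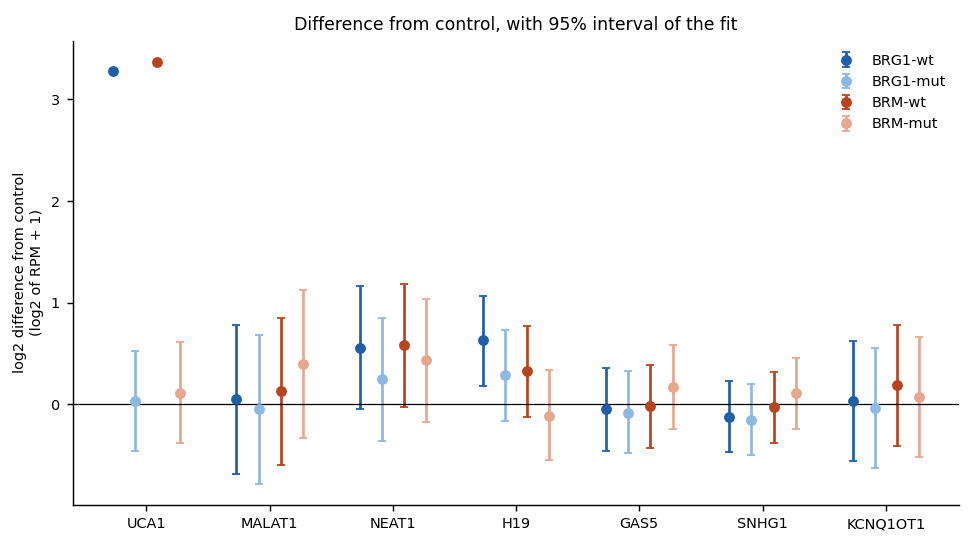
Log2 difference from control of each lncRNA in each ATPase group, on the log2(RPM + 1) scale, with the 95% interval of the fit over 10 libraries. UCA1 lies at 3.28 and 3.37 in the wild types, shown without an interval because it was chosen for these differences, and near 0 in the mutants. Of the other 6 members, H19 in BRG1-wt has an interval that excludes 0 (0.18 to 1.07). H19 passed the filter on low reads only through the wild-type libraries, so its intervals are no test.

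NEAT1 (chr11:65190245-65213011, plus strand) was the abundant member with the largest differences. It held 286 and 303 RPM in control, 465 and 402 in BRG1-wt, and 581 and 333 in BRM-wt. In BRG1-mut it held 383 and 319, and in BRM-mut 346 and 462. All 8 libraries with an ATPase, wild type or mutant, lay above both controls. The control plasmid has another backbone, so ATPase and backbone cannot be told apart there. The 2 BRG1-wt libraries also lay above both BRG1-mut libraries, and every other pair of ATPase groups overlapped. The share of all genes with such orders was not counted. The log2 difference was 0.55 in BRG1-wt (95% interval -0.05 to 1.16, unadjusted p = 0.0683, adjusted p = 0.992, limma) and 0.58 in BRM-wt (-0.03 to 1.18, adjusted p = 1, limma). It was 0.25 in BRG1-mut (-0.36 to 0.85) and 0.44 in BRM-mut (-0.17 to 1.04). A difference as large in size as that of NEAT1 was found for 4.90% of genes in BRG1-wt, 2.84% in BRM-wt, 3.59% in BRM-mut and 31.9% in BRG1-mut. The BRM-wt difference was 0.15 without the deeper BRM-wt library, which held fewer reads of GC-rich genes, and 0.97 without the shallower one, and neither value passed.

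The proteins with which NEAT1 builds paraspeckles gave no calls: 0 of 11 genes rose and 0 fell in each of the 4 comparisons with control. Their median log2 difference was -0.02 in BRG1-wt and 0.03 in BRM-wt, beside 0.01 and -0.01 for all genes. In BRG1-wt the RNA-binding proteins DAZAP1 and RBM14 had differences of 0.19 ± 0.27 (SE) and 0.15 ± 0.36. SFPQ, the core protein that binds NEAT1, held 24199 to 41056 reads per library.

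MALAT1 (chr11:65265111-65275544, plus strand) ranged from 287 to 584 RPM. Its levels were 287 and 351 in control, 375 and 289 in BRG1-wt, 290 and 323 in BRG1-mut, and 413 and 291 in BRM-wt. In BRM-mut they were 302 and 584, so 1 library alone set the highest value. The log2 difference of BRM-mut from control was 0.40 (95% interval -0.33 to 1.13, adjusted p = 0.995, limma). Without the shallower BRM-mut library, whose GC correlation was -0.82, the difference was -0.06, and without the deeper one 0.88. It was 0.05 in BRG1-wt (-0.68 to 0.78), 0.13 in BRM-wt (-0.60 to 0.85) and -0.05 in BRG1-mut (-0.78 to 0.68). FAUP4, a pseudogene between NEAT1 and MALAT1, held 117 to 188 reads and did not pass in any comparison with control.

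GAS5 and SNHG1, the snoRNA hosts, varied little over the libraries. GAS5 (chr1:173827697-173838020, minus strand) ranged from 218 to 327 RPM, and SNHG1 (chr11:62619450-62623425, minus strand) from 279 to 384. For GAS5 the log2 difference from control was -0.05 in BRG1-wt (95% interval -0.46 to 0.36) and -0.02 in BRM-wt (-0.43 to 0.39), and in the mutants -0.08 with BRG1 and 0.17 with BRM. For SNHG1 it was -0.12 in BRG1-wt (-0.47 to 0.23) and -0.03 in BRM-wt (-0.38 to 0.32), and in the mutants -0.15 with BRG1 and 0.11 with BRM. None of these passed. In both genes the highest values came from the deeper BRM-wt library, with 302 and 353 RPM, and the shallower BRM-mut library, with 327 and 384. These 2 libraries had the lowest GC correlations of the 10, -0.79 and -0.82, and the exons of GAS5 and SNHG1 both had 42.1% GC. The part of the tilt in these values was not tested. GAS5 overlaps ZBTB37 and GAS5-AS1 on the other strand, and the counting mode was not given, so reads of these genes cannot be told apart there. SLC3A2, which starts 51 bases from SNHG1 on the other strand, had a log2 difference of 0.44 in BRG1-wt (adjusted p = 0.902, limma).

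Of 20 snoRNA host genes listed, 19 were matched and tested, and 0 rose and 0 fell in each comparison with control. Their median log2 difference ranged from -0.05 in BRM-wt to 0.09 in BRG1-mut, with all genes at -0.01 in both. The largest single differences in BRG1-wt were those of SNHG19, 0.32 ± 0.60 (SE), and SNHG7, 0.28 ± 0.50 (SE), then EPB41L4A-AS1, -0.14 ± 0.21. In BRM-wt they were those of SNHG6, -0.20 ± 0.19, SNHG15, -0.17 ± 0.12, and SNHG12, -0.13 ± 0.15. SNHG7 held 512 reads in the deeper and 1199 in the shallower BRM-wt library, and SNHG19 21 and 124. None of 10 nonsense-mediated decay factors passed in any comparison with control. UPF1, the central helicase of that pathway, had a log2 difference of 0.40 ± 0.64 (SE) in BRG1-wt, followed by its partner UPF2 with -0.22 ± 0.18 and SMG9 with 0.19 ± 0.33.

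H19 (chr11:2016396-2025782, minus strand) was near the limit of detection. Control libraries held 3 and 6 reads, BRG1-wt 33 and 22, BRG1-mut 18 and 9, BRM-wt 6 and 21, and BRM-mut 4 and 0. With 0 reads in the shallower BRM-mut library, a level of up to 0.0878 RPM, the worth of 3 reads, is allowed by counting error. Both BRG1-wt libraries, at 0.845 and 0.653 RPM, lay above both controls, at 0.0832 and 0.179. H19 passed the filter of 10 reads on average only through the wild-type libraries, so its differences are a description, with no test. The log2 difference, which the added 1 RPM makes small at such levels, was 0.63 in BRG1-wt. Over the alternatives the BRG1-wt value ran from 0.31, with the GC trend subtracted, to 2.48 in limma-voom. In BRM-wt the log2 difference was 0.33, with 0.61 when the deeper library was left out and 0.03 without the shallower one. It was 0.29 in BRG1-mut, but -0.46 there with the GC trend subtracted, and -0.11 in BRM-mut. By mean level the order was BRG1-wt (0.749 ± 0.136 RPM), BRM-wt (0.448 ± 0.414), BRG1-mut (0.381 ± 0.141), control (0.131 ± 0.0675) and BRM-mut (0.0496 ± 0.0701; SD, n = 2 each). Neighbours in that order had overlapping libraries, except BRG1-mut and control, whose difference is likewise a description. H19 had the highest GC content of the members, and its low value in the deeper BRM-wt library and its 0 in the shallower BRM-mut library came from the libraries with the fewest reads of GC-rich genes. In control the order was the other way, with 6 reads in the shallower library (GC correlation -0.71) and 3 in the deeper one (0.49). The part of the tilt in the H19 values was not tested.

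KCNQ1OT1 (chr11:2618538-2721233, minus strand) is annotated with 92625 bases of exon. It held 8.77 and 7.27 RPM in control, 6.53 and 10.1 in BRG1-wt, 8.06 and 7.40 in BRG1-mut, 10.9 and 7.76 in BRM-wt, and 9.17 and 7.70 in BRM-mut. The 2 BRG1-wt libraries were the lowest and the second highest of all 10, and all 5 groups overlapped. The log2 difference from control was 0.03 in BRG1-wt (95% interval -0.56 to 0.62), 0.19 in BRM-wt (-0.41 to 0.78), -0.04 in BRG1-mut (-0.63 to 0.55) and 0.07 in BRM-mut (-0.52 to 0.66). Of 11 imprinted genes of 11p15, 8 were tested and 0 passed in either direction in each comparison with control. The median log2 difference of the 8 was 0.44 in BRG1-wt and 0.22 in BRM-wt. It was 0.61 in BRG1-mut and -0.14 in BRM-mut. The 2 mutant groups held the libraries with the highest and the lowest GC correlation, 0.80 and -0.82. After H19, the largest differences in BRG1-wt were those of SLC22A18, 0.45 ± 0.38 (SE), and TSSC4, 0.44 ± 0.79. TSSC4 held 733 and 380 reads in BRG1-mut but 85 and 449 in BRM-wt and 76 in the shallower BRM-mut library. IGF2, the growth factor gene next to H19, held 17 to 138 reads. KCNQ1, on the strand opposite KCNQ1OT1, held 4 to 22.

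Per kilobase of exon, SNHG1 was the most abundant member over the 10 libraries, at 79.3 RPM per kilobase. GAS5 followed at 53.2, MALAT1 at 33.6 and NEAT1 at 17.0. UCA1 stood at 0.684 in control, and with the wild-type ATPases at 8.75 (BRG1) and 9.40 (BRM). H19 at 0.102 and KCNQ1OT1 at 0.0904 were the lowest. These levels use all annotated exon bases, so a gene with long rarely used exons is set too low.

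Comparing each wild type with its own mutant, which share a plasmid backbone, UCA1 differed by 3.25 in BRG1 and 3.26 in BRM on the log2 scale. None of the other 6 members passed in these comparisons, where 0.236% and 0.296% of all genes did. The largest difference among them was that of H19 in BRM, 0.44. It is a description, since H19 passed the filter on low reads only through the wild-type libraries. NEAT1 differed by 0.31 (95% interval -0.30 to 0.91) in BRG1 and 0.14 (-0.47 to 0.74) in BRM. Between the ATPases, 0.00604% of genes passed for BRG1-wt against BRM-wt and 0.00604% for BRG1-mut against BRM-mut, and no member was among them. The gap between wild type and mutant differed between BRG1 and BRM by -0.01 for UCA1, again a description. For the other members that difference lay between -0.09 and 0.38, and none passed. The deposited means, each over 2 control and 2 ATPase libraries, share their control libraries. The UCA1 mean was 689 in the BRG1-wt table and 99.7 in the BRG1-mut table, and 707 and 107 in the BRM-wt and BRM-mut tables. Among genes with a mean of at least 10, 4.74% differed by over 1.5-fold between the BRG1-wt and BRG1-mut tables and 4.26% between those of BRM. Among the members UCA1 was past that fold, at 6.73 and 6.93. H19, whose mean over the 4 tables was under 10, stood at ratios of 1.65 and 2.68.

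The tested genes around UCA1 stayed well below its difference. Of 102 genes in the tables within 1 Mb on each side, 29 were tested, and none of the 28 other than UCA1 passed in any comparison with control. Their log2 differences ranged from -0.24 to 0.61 in BRG1-wt and from -0.28 to 0.32 in BRM-wt. The nearest tested genes were RPL23AP2, a ribosomal protein pseudogene 216 kb away, with differences of 0.02 and -0.28, and CYP4F11, 76.0 kb away, with 0.05 and -0.04. CYP4F22 had 0.21 and 0.18. UCA1 lies within a cluster of CYP4F genes, which encode fatty acid hydroxylases, and olfactory receptor genes. The 5 listed olfactory receptor genes held 0 reads in every library. CYP4F3 held 1 and 0 reads in control, 21 and 4 in BRG1-wt, 14 and 3 in BRM-wt, 0 and 0 in BRG1-mut, and 1 and 0 in BRM-mut. CYP4F12 held 8 and 7 reads in BRG1-wt, 2 and 11 in BRM-wt, and at most 1 in any other library. Both were under the filter of 10 reads on average and were not tested, and they are singled out after their values were seen. NOTCH3, a Notch receptor gene, had the largest difference of the 28 in BRG1-wt, 0.61, with 1.07 in BRG1-mut. Other genes of the 28 went higher in BRG1-mut, where the range was -0.15 to 1.24 and the median 0.29. In BRM-mut the range was -0.51 to 0.26. The part of the GC tilt in these values was not tested.

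**Figure D3:**
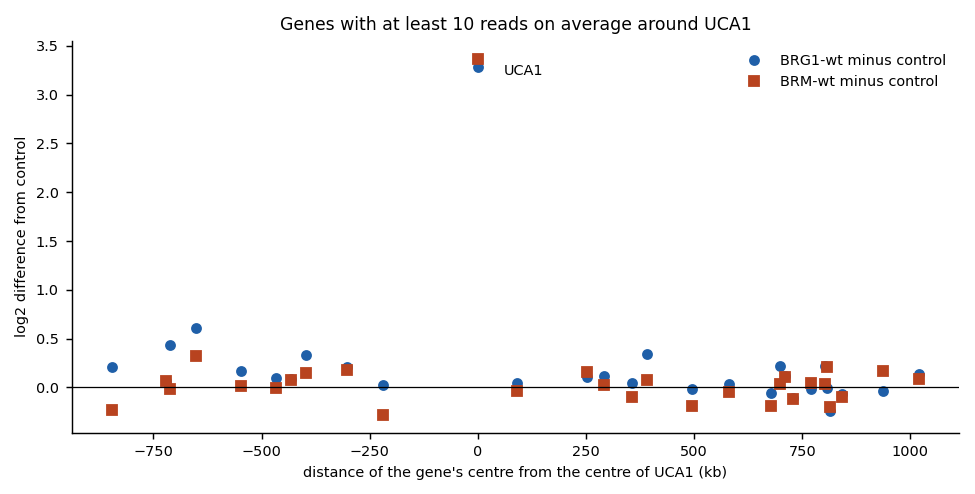
Log2 difference from control in BRG1-wt (circles) and BRM-wt (squares) of the 29 tested genes within 1 Mb of UCA1, against the distance of each gene's centre from that of UCA1 in kb. UCA1 stands above 3 in both, and the other 28 genes lie between -0.28 and 0.61.

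The 5 genes whose profile over the 5 groups lay nearest to that of UCA1 were sought among 11966 genes with at least 100 reads on average, by Euclidean distance of centred log2 levels. They were SPARC (distance 0.29), DDX60L (0.36), IFIT1 (0.37), CPA4 (0.40) and PARP9 (0.41). SPARC encodes a matrix protein and CPA4 a carboxypeptidase, and the other three respond to interferon. SPARC held 476 and 281 reads in BRG1-wt and 303 and 279 in BRM-wt, and 0 to 9 in the other 6 libraries. CPA4 held 938 and 857 reads in BRG1-wt, 1554 and 582 in BRM-wt, and 30 to 109 in the others. SPARC and CPA4 thus passed the filter of 100 reads on average only through the wild-type libraries, which favours a likeness to UCA1. The interferon-responsive genes were far less even within groups than UCA1. In BRM-wt the deeper library exceeded the shallower one 4.93 times in IFIT1, 8.34 times in DDX60L and 3.74 times in PARP9, and 1.32 times in UCA1. In BRG1-wt the order was the reverse for these genes, with ratios of 0.430, 0.284 and 0.446, and 1.16 for UCA1. By Pearson's r over the 5 groups, which ignores the size of the change, 5 other genes came first, led by HERC6 and TLR3. With 5 points per gene, either measure describes likeness only.

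**Figure D4:**
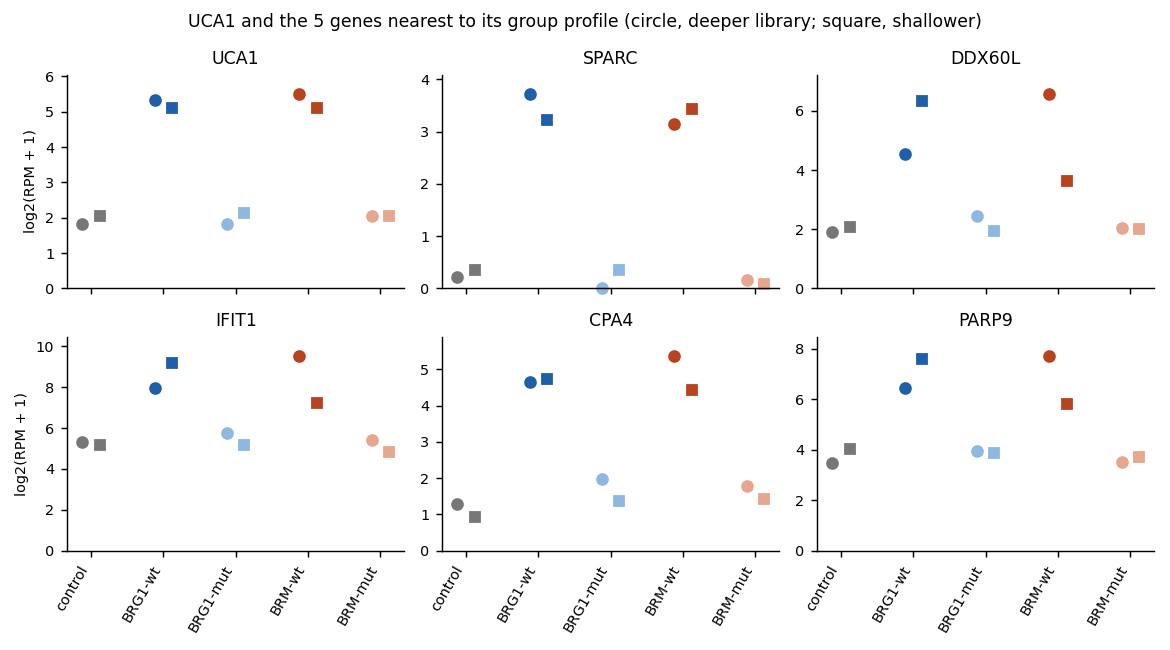
Log2(RPM + 1) of UCA1 and of the 5 genes nearest to its group profile, by library (circle, deeper; square, shallower). The 2 libraries of BRM-wt lie close together for UCA1 and SPARC and far apart for DDX60L, IFIT1 and PARP9.

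Promoter windows of these 5 genes, from 250 bases before to 50 after the start, were read from RefSeq (GRCh38.p14) and searched on both strands for the AP-1 motif TGANTCA and for the core of the interferon-stimulated response element, which is GAAA, then 2 bases of any kind, then GAAA. The former was present in 7.71% of 35116 promoter windows and the latter in 3.57%. The 2 motifs were not in the plan, and the 5 genes were picked before the search. Matches in these genes, set beside those shares, are therefore a description, with no test. CPA4 held the AP-1 letters at 2 places and IFIT1 and DDX60L the interferon letters at 2 places each, and PARP9 at 1. The window of SPARC held neither. The stretches are shown because they set the promoters of 2 kinds of gene with a UCA1-like profile side by side. The matching letters are in capitals, 5′ to 3′ on the strand of the gene.
CPA4, chr7:130293098-130293167, plus strand: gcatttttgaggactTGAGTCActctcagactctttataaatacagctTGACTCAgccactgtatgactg
IFIT1, chr10:89392492-89392544, plus strand: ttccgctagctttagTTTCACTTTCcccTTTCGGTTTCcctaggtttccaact
DDX60L, chr4:168480518-168480587, minus strand: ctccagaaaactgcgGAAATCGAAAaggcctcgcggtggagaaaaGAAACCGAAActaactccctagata
PARP9, chr3:122564317-122564356, minus strand: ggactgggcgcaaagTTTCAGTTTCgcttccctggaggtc
Of the members, MALAT1, H19, GAS5 and SNHG1 have windows in that set, and neither motif was in them. UCA1, NEAT1 and KCNQ1OT1 have no window there, so their promoters were not searched. A match of letters is not a bound site.

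Of 1720 annotated lncRNA genes with at least 10 reads on average, 2 were called higher in BRG1-wt (0.116%) and 4 in BRM-wt (0.233%). These counts say nothing about lncRNAs as a class. UCA1, chosen for its difference, is 1 of them, and the others, LINC02167 in both wild types and IGFL2-AS1 and ENSG00000227706 in BRM-wt, passed the filter on low reads only through the wild-type libraries. Their reads are therefore given as a description, with no test, and all 3 were named after their values were seen. LINC02167 (chr16:34977639-34990886, plus strand) held 2 and 3 reads in control, 66 and 55 in BRG1-wt, 112 and 56 in BRM-wt, 5 and 6 in BRG1-mut, and 5 and 7 in BRM-mut. IGFL2-AS1 (chr19:46692286-46706417, minus strand) held 54 and 25 reads in BRG1-wt, 54 and 30 in BRM-wt, and 0 or 1 in each of the other 6 libraries. ENSG00000227706 held 35 and 24 reads in BRM-wt, 22 and 21 in BRG1-wt, and 2 to 8 in the libraries without a wild-type ATPase. In all 3 genes each wild-type library lay above the other 6, an order that the way they were picked favours. The share of all genes with this order was not counted. The genes opposite IGFL2-AS1 cannot be told apart from it without the strand. No lncRNA gene fell, and none was called in BRG1-mut or BRM-mut, where 48 and 27 had an unadjusted p under 0.05 (limma).

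Of a list of 19 tissue-restricted and tumour-linked lncRNAs, 16 were matched and 9 tested, and beside UCA1, chosen for its difference, 0 of the other 8 passed in any comparison with control. The differentiation lncRNA TINCR held 21 to 58 reads, HOTAIR 2 to 9 and LUCAT1 0 to 5. MIR210HG, host of the hypoxia microRNA miR-210, had a log2 difference of 0.45 ± 0.66 (SE) in BRG1-wt, with 15 to 239 reads per library. MIR22HG had 0.30 ± 0.16 in BRM-wt (adjusted p = 1, limma). Of 14 broadly expressed lncRNAs, 13 were matched and 12 tested, and 0 passed in each comparison with control. Their median log2 difference was 0.04 in BRG1-wt and 0.07 in BRM-wt. NORAD, a cytoplasmic lncRNA that binds Pumilio proteins, held 8200 to 16336 reads, and MEG3, an imprinted lncRNA, 0 to 2.

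No exon of the 7 members was listed in the 8 deposited splicing tables, which hold 396 to 977 events each and 3102 in all. These tables, made with MISO, hold only events with a Bayes factor of at least 10 when 1 ATPase library is set against the control with its replicate number. An event left out of a table may therefore have been measured without passing. Among the listed lncRNAs, 6 genes had 7 such events. SNHG15, a snoRNA host like GAS5 and SNHG1, and TUG1, a broadly expressed lncRNA, were each listed in more than 1 table for the same exon. Both exons are shown in capitals with 12 bases of intron in lower case on each side, from GRCh37, 5′ to 3′ on the strand of the gene.
SNHG15, chr7:45025620-45025696, minus strand: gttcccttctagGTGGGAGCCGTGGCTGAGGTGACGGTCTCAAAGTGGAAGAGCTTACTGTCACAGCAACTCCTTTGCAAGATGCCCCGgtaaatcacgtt
TUG1, chr22:31368034-31368158, plus strand: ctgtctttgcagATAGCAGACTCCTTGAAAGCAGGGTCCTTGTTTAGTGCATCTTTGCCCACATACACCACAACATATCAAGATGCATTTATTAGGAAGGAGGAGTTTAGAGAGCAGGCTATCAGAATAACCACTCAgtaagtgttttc
Both follow AG and precede GT, the usual splice site letters. The SNHG15 exon has 77 bases and 57.1% GC, and the TUG1 exon 125 bases and 42.4% GC.

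The share of SNHG15 transcripts with the exon (PSI) was 0.31 in control replicate 1 and 0.95 in control replicate 2. In replicate 1 it was 0.96 in BRG1-wt, 0.95 in BRG1-mut and 0.96 in BRM-wt, all near the control of replicate 2. In replicate 2 it was 0.48 in BRM-wt, below its own control. The difference from control was thus 0.65 in BRM-wt replicate 1 and -0.47 in BRM-wt replicate 2, and the controls themselves stood at 0.31 and 0.95. Read numbers of SNHG15 were even, between 1964 and 2809 per library. The TUG1 exon had a PSI of 0.15 in control replicate 1, 0.27 in BRG1-wt replicate 1 and 0.28 in BRG1-mut replicate 1, and it was in no table of replicate 2. The other events, in CASC15, CYTOR and MIR22HG of the tumour-linked list and in SNHG6, were each listed in 1 table, and CYTOR has a near-identical copy, MIR4435-2HG. Reads behind each PSI were not used here, so their precision is unknown.

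**Figure D5:**
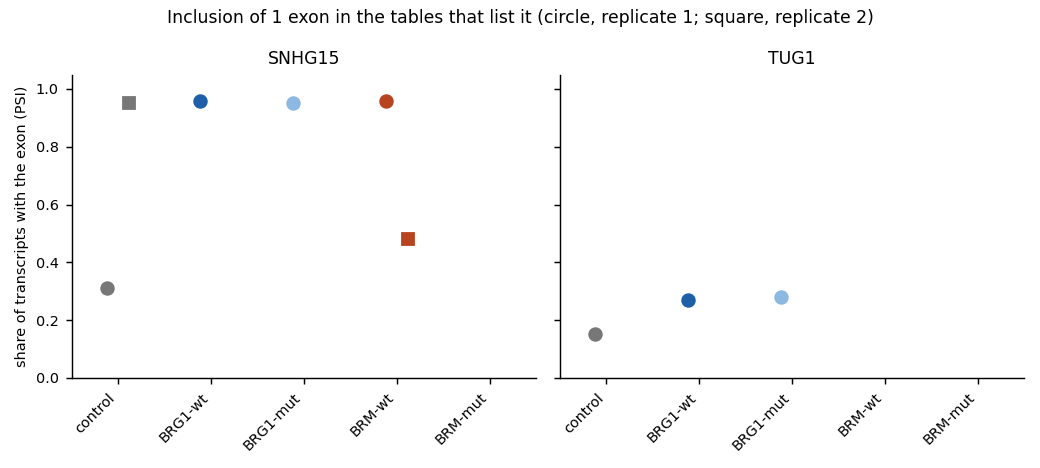
Share of transcripts with the exon (PSI) of SNHG15 and TUG1 in the libraries whose tables list the event (circle, replicate 1; square, replicate 2). For SNHG15 the controls stand at 0.31 and 0.95, and BRM-wt at 0.96 and 0.48.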

How the data were processed

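Polyadenylated RNA of 10 libraries was sequenced. The authors aligned reads with TopHat2 2.0.4 to GRCh37 and counted them with HTSeq 0.6.1. The strand mode and the Ensembl release are not given in the sources used here. The authors' 4 DESeq2 tables each set 1 ATPase group against control. The authors made the base mean column used here, a signal, by dividing the reads of 4 libraries by size factors and averaging them. The tables' fold changes, standard errors, statistics and p-values, and the Bayes factors of the MISO tables, are the authors' comparisons and were not used, except to see which Bayes factors the tables hold. The deposited PSI values are fractions estimated by MISO per library.

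Base means carry up to 15 digits, and each is a sum of whole reads times 4 steps, 1 per library. Reads of each library were solved for 63144 of 63152 genes, and 8 had no single solution and were left out. Tested on simulated data of 5000 genes, 100% were solved right. Libraries with the same reads in all 4 tables were taken as control. Gene positions, exon lengths and GC content came from GENCODE v44lift37.

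Levels are reads per 1000000 (RPM) with TMM factors. Genes with at least 10 reads on average (16545) were tested with limma 3.58.1 (R 4.3.3) on log2(RPM + 1), all 10 libraries in 1 fit, with Benjamini-Hochberg adjustment and a threshold of 0.05. On simulated reads 98% to 100% of 2-fold changes were recovered over the 8 comparisons, with 8 to 12 unchanged genes called in each. The simulation gave every gene the same assumed spread, changed only genes with at least 100 reads on average, and had no GC tilt. These shares therefore do not carry over to the real libraries. The named genes are the 7 members, the 5 genes nearest to UCA1, and genes from the 3 largest differences of each list, of which not all are reported here. Members and lists were chosen with earlier results of these data known. Limits set by 3 reads cover counting error only. Alternatives were scaling, filter, pseudocount, GC trend, limma-voom, fits of 2 groups and leaving out each library.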

Additional observations from a re-analysis of the deposited data

How the results depend on the processing

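No paired analysis was possible because the recovered reads of a library carry no replicate number. The planned count model was not run, and limma-voom on the recovered reads was run in its place. limma-voom, totals without TMM factors, the pseudocount of 0.1 RPM and other filters for the count of genes past the fold were chosen after seeing the data. Over all alternatives 0 of the other 6 members passed in any comparison, although 60 of 803 values had another sign than the one reported. H19 fell under the filter in some fits that left out a library, in some fits of only 2 groups and in the GC correction of the table ratio, which then gave no value.

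UCA1 kept its direction in the 4 wild-type comparisons, between 3.05 and 3.79 over 68 alternative values. A pseudocount of 0.1 RPM gave 3.64 (BRG1-wt minus control), 3.73 (BRM-wt minus control), 3.59 (BRG1-wt minus BRG1-mut) and 3.58 (BRM-wt minus BRM-mut), and limma-voom gave 3.68, 3.79, 3.64 and 3.63. Leaving out each library gave 3.16 to 3.40, 3.16 to 3.56, 3.10 to 3.42 and 3.05 to 3.46 in that order, and -0.27 to 0.14 for BRG1-wt minus BRM-wt.

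The number of genes called depended on single libraries. Leaving out each in turn gave 0 to 145 genes for BRG1-wt minus control, where 0 were called without either control library and 145 without the shallower BRM-wt library. It gave 1 to 137 for BRM-wt minus control, 0 to 118 for BRG1-wt minus BRG1-mut, 0 to 106 for BRM-wt minus BRM-mut, 0 to 1 for BRG1-mut minus control and 1 to 2 for BRG1-mut minus BRM-mut. limma-voom called 31 genes for BRG1-wt minus control, 17 for BRG1-wt minus BRG1-mut and 0 for BRM-mut minus control, BRG1-wt minus BRM-wt and BRG1-mut minus BRM-mut. With only the 2 groups in the fit, 135 were called for BRG1-wt minus BRG1-mut and 0 for BRM-wt minus control, BRM-wt minus BRM-mut and BRG1-wt minus BRM-wt. The GC correction gave 20 for BRG1-mut minus BRM-mut.

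Genes past the fold between the wild-type and mutant tables numbered 780 for BRG1 and 701 for BRM. They numbered 3256 and 3120 with no filter, 396 and 323 with a mean of at least 100, 418 and 408 after the GC correction, and 207 and 211 at 2-fold. The log2 table ratio of H19, 0.72 and 1.42, was 0.41 and 0.65 with a pseudocount of 10. By Pearson's r, 0 of the 5 genes nearest to UCA1 were the same. Where calls were lost, the cause was not tested.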
